A study of Saccharomyces cerevisiae with 22 samples.

Results

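The genes described here are 41 enzymes and regulators of amino acid biosynthesis in the budding yeast Saccharomyces cerevisiae and GCN4, which encodes the transcription activator known to act on many of them. They were chosen by gene symbol, with earlier results of these data known. They make up 42 of the 6388 gene probes on the arrays, with 1 probe for each gene. By pathway, 4 belong to histidine synthesis, 10 to branched-chain amino acid synthesis, 7 to lysine synthesis, 10 to aromatic amino acid synthesis, 5 to the aspartate family route to threonine, 2 to asparagine synthesis and 3 to proline synthesis. Genes of arginine, serine and sulphur amino acid synthesis were not included.

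Gcn4 is a basic leucine zipper protein that binds upstream of many amino acid biosynthesis genes and recruits coactivators and chromatin remodellers there. When any of several amino acids runs short, uncharged tRNA activates the kinase Gcn2, phosphorylated eIF2 lowers general translation, and GCN4 mRNA, whose leader holds short upstream reading frames, is translated more. This response, general amino acid control, therefore acts mostly on Gcn4 protein, which the arrays do not measure. Several pathways also answer to a regulator of their own, such as Leu3 for branched-chain genes, Lys14 for lysine genes and Aro80 for aromatic amino acid breakdown.

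The series profiled RNA of yeast strains that carry alanine in place of 1 histone residue. The H3 mutants were hht2-Q5A, hht2-R40A, hht2-G44A, hht2-R53A, hht2-N108A and hht2-L109A, each set against hht2-wt, and the H4 mutants were hhf2-K44A, hhf2-V81A and hhf2-Y98A, each set against hhf2-wt. The labels give BY4742 as the background of all 11 strains and of the wild-type pool that served as the common reference. Marker genes went against a single background: TRP1 had log2 ratios to the reference of -3.60 to -2.90 on all 22 arrays, controls included. HIS3 was at 0.85 to 1.57 on the arrays of the H3 strains, hht2-wt included, and differed among the H4 strains. The strains and the reference are thus not alike at TRP1 and HIS3. LYS2 was above background on all 22 arrays, at -0.41 to -0.01. Each strain was grown as 2 cultures, a and b, on 1 two-colour array each with the dyes swapped, which gave 22 arrays, and the labels do not say whether a strain is 1 clone. The H3 mutants share the arrays of 1 control strain, and so do the H4 mutants. Sample titles also hold a number that the labels do not explain. It is 1 for both controls, R53A, L109A and Y98A, and 2 for Q5A, R40A, G44A, N108A, K44A and V81A. Among the H3 mutants only R53A and L109A thus share the number of their control. The number was not used, and its part in the differences was not tested.

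All values below are log2 ratios of intensity. A log2 ratio to the reference is the value of 1 array, strain over common reference. A log2 fold change is the fitted difference mutant minus control, from 2 cultures of each strain, given with its standard error from limma. That error rests on 1 estimate of spread a gene from all 22 arrays. It is the same in every mutant and is not the spread of the cultures compared. Calls required an adjusted p under 0.05, with Benjamini-Hochberg adjustment over the 6388 probes, and each adjusted p comes from limma. Depth is not defined for arrays, and the number of arrays limits the precision: the standard error for the 42 genes was 0.04 to 0.12, with a median of 0.08. All 42 genes were above background by 2.6 background SDs in both channels on all 22 arrays, and none was near saturation. On the 4 control arrays their log2 ratios to the reference ran from -0.45 for LYS14 to 0.55 for LYS1. Cultures were measured in bulk, so a change in some cells and a smaller change in all of them cannot be told apart. The cultures of 1 strain correlated by 0.893 to 0.959 across probes. Among these 42 genes the median difference between cultures was 0.15 in G44A and at most 0.10 in the other strains. Signs follow the dye labels, since the series text gives the opposite dye order for the first hybridisation.

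Most of the group was higher in V81A and in Q5A. In V81A, 34 of the 42 genes rose and 2 fell, against 16.8% and 17.1% of all probes (33.9% changed), and the median log2 fold change of the 42 was 0.51. In Q5A, 26 genes rose and 2 fell, against 7.7% and 11.2% of all probes (18.9% changed), with a median of 0.30. In Y98A, 17 genes rose and 4 fell, against 13.9% and 16.7% of all probes (30.6% changed), with a median of 0.17. These are shares of 81%, 61.9% and 40.5% of the group called higher. The median log2 fold change over all probes lay within 0.02 of 0 in all 9 mutants. The loess normalisation within each array centres these values, so this median cannot show a shift shared by all genes.

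In G44A, N108A and R40A more of these genes fell than rose. In G44A, 4 rose and 14 fell, against 23.9% and 22.4% of all probes (46.3% changed), with a median of -0.12. The 33.3% called lower in G44A is to be read beside those 22.4%. In N108A, 4 rose and 12 fell, against 16.6% and 12% of all probes (28.6% changed), with a median of -0.07. In R40A, 1 rose and 7 fell, against 9.8% and 4.95% of all probes (14.7% changed), with a median of -0.09. In K44A, 4 rose and 2 fell, against 15.9% and 13.6% of all probes (29.5% changed), with a median of -0.02. These K44A shares of 9.52% and 4.76% are both below those of all probes.

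No gene of the group was called in R53A or L109A, where limma called 0.673% and 0.0626% of all probes changed. For R53A these were 0.579% higher and 0.0939% lower, and for L109A 0% higher and 0.0626% lower. At an unadjusted p below 0.05 there were 8 of these genes in R53A and 5 in L109A, against 9.1% and 4.23% of all probes. In hht2-wt over hhf2-wt, where 0% of all probes were called, none of the 42 reached even the unadjusted level, at which 1.1% of all probes lay. Fitting R53A and hht2-wt alone called 6 genes, 1 higher and 5 lower, against 6.47% and 2.18% of all probes in that fit (8.64% changed).

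**Figure D1:**
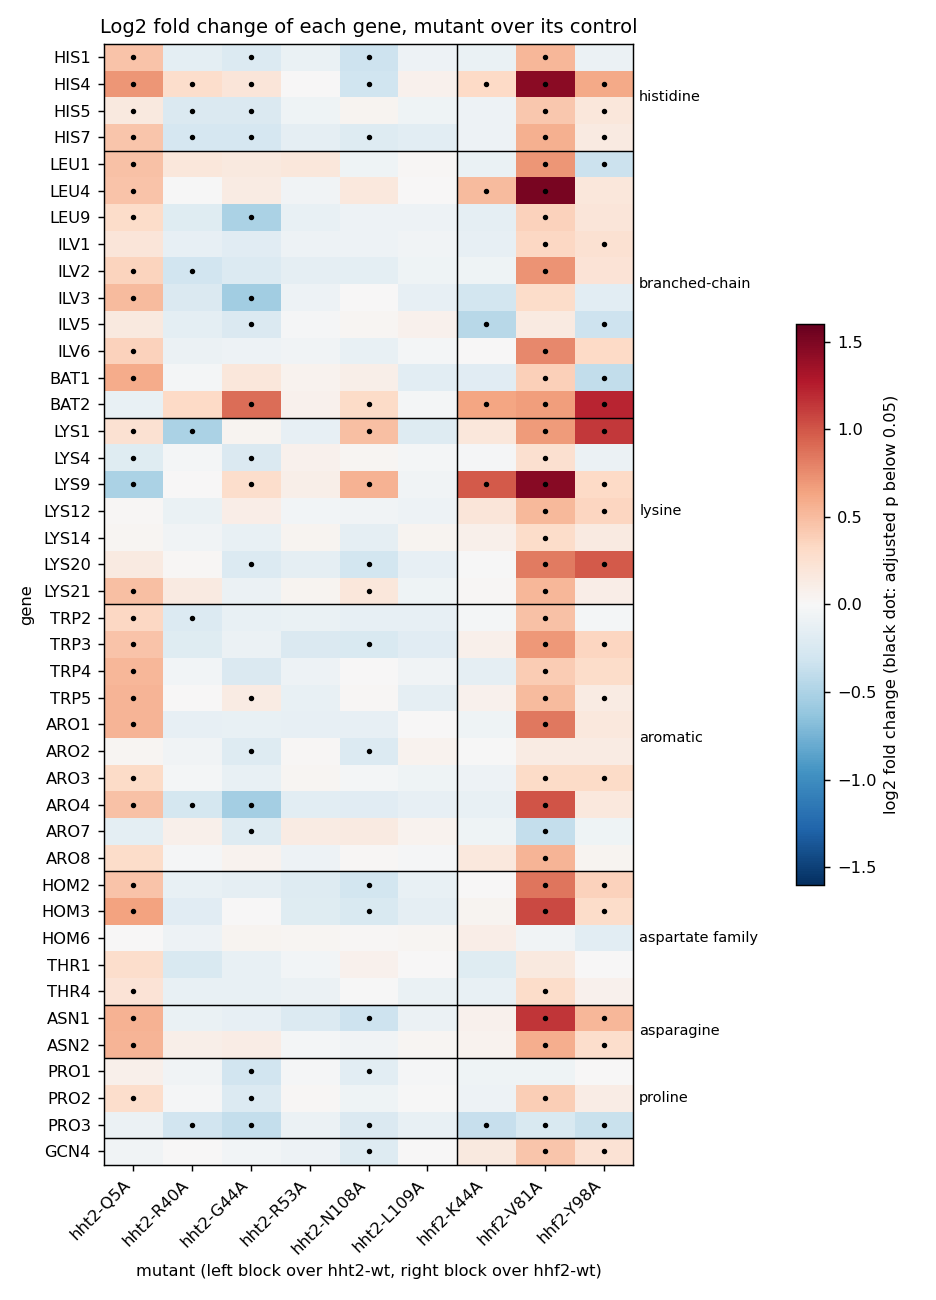
Log2 fold change of each of the 42 genes (rows, by pathway) in the 9 mutants (columns), each mutant over the control of its own histone, with a black dot for an adjusted p below 0.05. The columns of Q5A and V81A are mostly red, with 26 and 34 genes higher, while those of R53A and L109A hold no dot.

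Some counts rest in part on single arrays. Without culture a of Q5A, 18 genes were called in that mutant, 17 higher and 1 lower. In R40A, 4 were called without its culture a and 3 without culture b of hht2-wt, all of them lower. In N108A, 8 were called without its culture a, 9 without its culture b, 6 without culture a of hht2-wt and 10 without culture b of hht2-wt. In these 4 fits the lower calls (4 to 8) outnumbered the higher calls (2 or 3). In V81A, 33 to 36 genes were called whichever culture was left out.

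Mutants were also compared with each other directly. In Q5A over R40A, 32 of the 42 genes were higher and 4 lower, against 16.1% and 21.6% of all probes (37.7% changed). In Q5A over G44A, 33 were higher and 2 lower, against 26.2% and 27.8% (54% changed), and in Q5A over N108A, 28 were higher and 5 lower, against 19.4% and 24.4% (43.8% changed). In V81A over Y98A, 27 were higher and 3 lower, against 21.6% and 18.4% (40% changed). In K44A over Y98A, 4 were higher and 19 lower, against 23.1% and 20.4% of all probes (43.6% changed), and 14 were called without culture b of K44A.

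**Figure D2:**
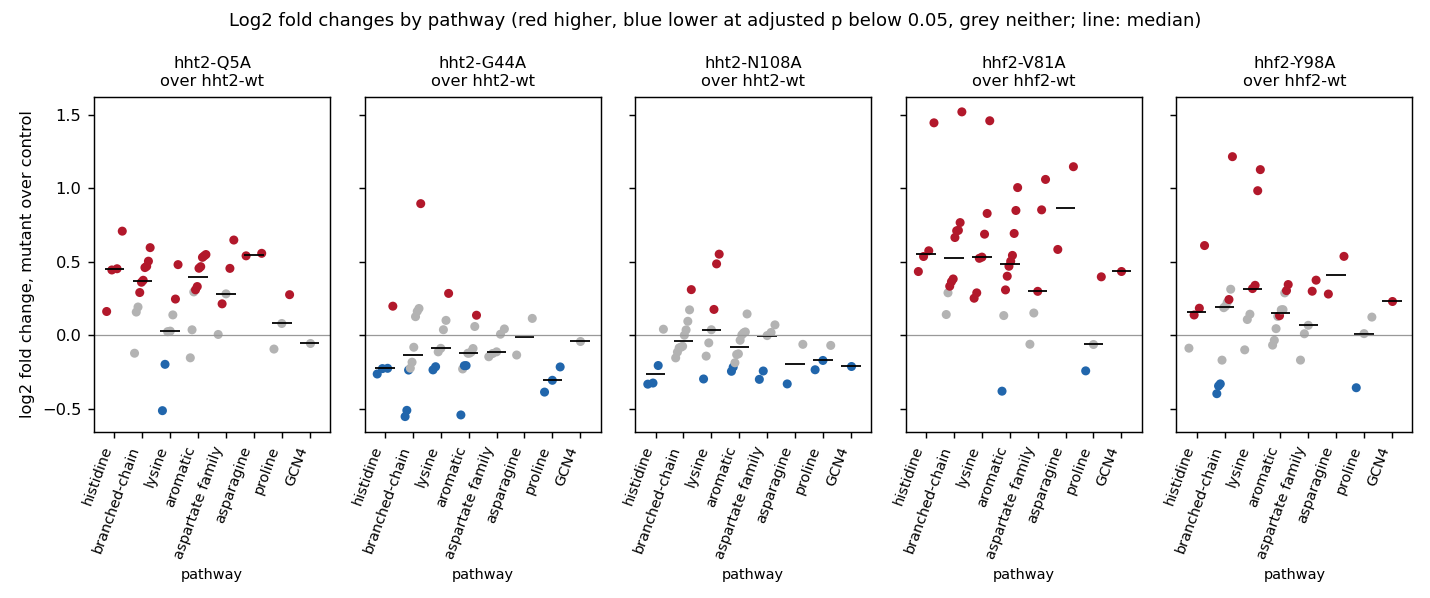
Log2 fold changes (vertical axis) of the genes of each pathway (horizontal axis) in Q5A, G44A, N108A, V81A and Y98A, mutant over control, 1 point a gene, red for called higher, blue for called lower, grey for neither, and a line at the median of each pathway. In V81A all 7 lysine genes are red, while in Q5A the lysine points are 2 red, 2 blue and 3 grey.

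Called changes spread unevenly over the genes. There were 133 pairs of gene and mutant with a call. HIS4 was called in 7 mutants, HIS7, LYS9 and PRO3 in 6, and THR1 and HOM6 in none. Of the 42 genes, 21 were higher in some mutants and lower in others, 14 were called only as higher and 5 only as lower.

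GCN4 RNA itself was called changed in 3 of the 9 mutants, by at most 0.44 on the log2 scale. Its log2 ratios to the reference were -0.09 and 0.03 in Q5A, -0.03 and 0.08 in R40A, -0.02 and -0.02 in G44A, -0.10 and -0.02 in R53A, -0.28 and -0.10 in N108A, 0.08 and -0.02 in L109A, against 0.02 and 0.02 in hht2-wt. GCN4 in the H4 strains read 0.16 and 0.12 in K44A, 0.42 and 0.43 in V81A, 0.15 and 0.28 in Y98A, against -0.13 and 0.10 in hhf2-wt. Both V81A arrays were the highest of the 22, and Q5A straddled its control. The N108A arrays were below those of hht2-wt, and so were those of G44A and R53A, where GCN4 was not called.

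GCN4 rose by 0.44 ± 0.07 (adjusted p = 0.00015) in V81A and by 0.23 ± 0.07 (adjusted p = 0.019) in Y98A, and was lower, at -0.21 ± 0.07 (adjusted p = 0.036) in N108A. In V81A over Y98A it differed by 0.21 ± 0.07 (adjusted p = 0.027). Its log2 fold change was -0.05 ± 0.07 (adjusted p = 0.68) in Q5A, the other mutant with most of the group higher, and 0.16 ± 0.07 (adjusted p = 0.096) in K44A. R40A, G44A, R53A and L109A gave 0.0045 ± 0.07, -0.04 ± 0.07, -0.08 ± 0.07 and 0.01 ± 0.07, none of them called. The calls in N108A and Y98A did not hold throughout: GCN4 in N108A was -0.15 without hht2-N108A culture a (adjusted p = 0.24), and GCN4 in Y98A was 0.14 without hhf2-wt culture a (adjusted p = 0.23).

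**Figure D3:**
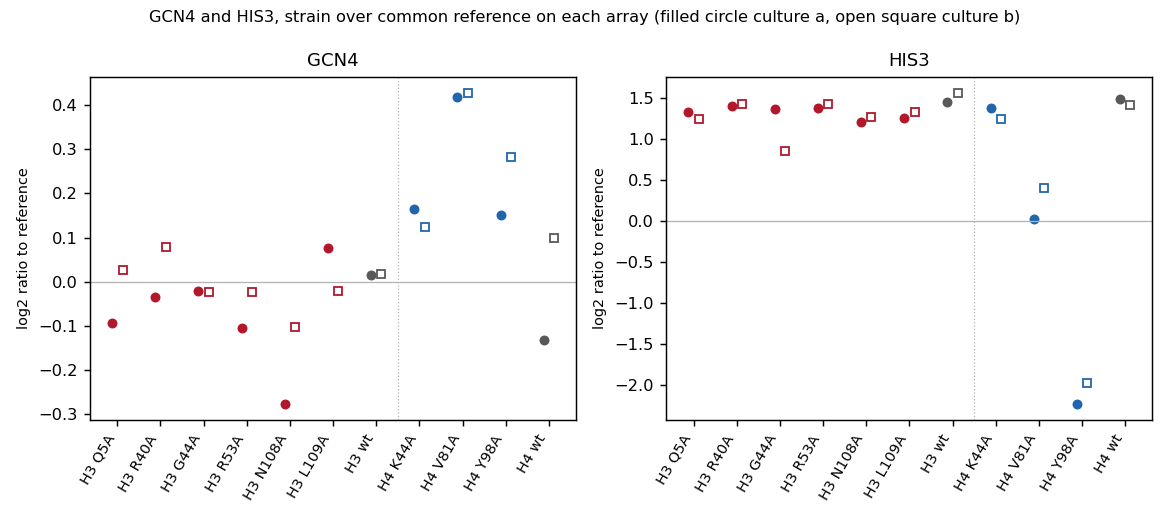
Log2 ratio of strain over common reference on each of the 22 arrays for GCN4 (left panel) and HIS3 (right panel), by strain, with H3 mutants in red, H4 mutants in blue and controls in grey (filled circle culture a, open square culture b). GCN4 is highest in V81A at 0.42 and 0.43, and HIS3 is far below all other strains in Y98A at -2.23 and -1.97.

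In histidine synthesis, all 4 genes rose in Q5A and in V81A and 3 rose in Y98A, while 3 fell in G44A and in N108A and 2 fell in R40A. Over all probes, 7.7% were higher in Q5A, 16.8% in V81A and 13.9% in Y98A. Those lower were 22.4% in G44A, 12% in N108A and 4.95% in R40A. HIS4 encodes a trifunctional enzyme that catalyses early steps and the last step of the pathway, HIS1 the ATP phosphoribosyltransferase that opens it, HIS7 the glutamine amidotransferase of its middle and HIS5 histidinol-phosphate aminotransferase. HIS4 had log2 ratios to the reference of 0.51 and 0.55 in Q5A, 0.20 and -0.0041 in R40A, -0.07 and 0.11 in G44A, -0.19 and -0.17 in R53A, -0.52 and -0.49 in N108A, -0.09 and -0.13 in L109A, against -0.06 and -0.30 in hht2-wt. On the H4 arrays HIS4 had 0.06 and 0.06 in K44A, 1.20 and 1.15 in V81A, 0.34 and 0.35 in Y98A, against -0.23 and -0.30 in hhf2-wt. Both Q5A arrays were above, and both N108A arrays below, every other H3 array, and each H4 mutant was above hhf2-wt on both arrays, while the G44A arrays overlapped those of hht2-wt.

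HIS4 rose by 0.71 ± 0.08 (adjusted p = 3.5e-05) in Q5A, 0.28 ± 0.08 (adjusted p = 0.028) in R40A and 0.20 ± 0.08 (adjusted p = 0.049) in G44A. In N108A it was lower, at -0.32 ± 0.08 (adjusted p = 0.0067). In the H4 mutants it rose by 0.32 ± 0.08 (adjusted p = 0.0058) in K44A, 1.44 ± 0.08 (adjusted p = 7.3e-09) in V81A and 0.61 ± 0.08 (adjusted p = 4.2e-05) in Y98A. HIS4 was thus higher in 6 mutants, among them R40A and G44A, in which HIS5 and HIS7 were called lower. Q5A was above N108A by 1.03 ± 0.08 (adjusted p = 2.2e-07) and V81A above Y98A by 0.83 ± 0.08 (adjusted p = 7.3e-07).

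HIS7 read 0.46 and 0.42 in Q5A, -0.28 and -0.27 in R40A, -0.33 and -0.21 in G44A, -0.19 and -0.11 in R53A, -0.23 and -0.19 in N108A, -0.17 and -0.19 in L109A, against 0.01 and -0.02 in hht2-wt. Among the H4 strains HIS7 read -0.14 and -0.07 in K44A, 0.55 and 0.54 in V81A, 0.06 and 0.16 in Y98A, against -0.03 and -0.03 in hhf2-wt. All 3 of R40A, G44A and N108A lay below both hht2-wt arrays, and so did R53A and L109A, which were not called. HIS7 rose by 0.44 ± 0.05 (adjusted p = 3.7e-05) in Q5A, 0.57 ± 0.05 (adjusted p = 3.7e-07) in V81A and 0.14 ± 0.05 (adjusted p = 0.046) in Y98A, and its log2 fold change was -0.27 ± 0.05 (adjusted p = 0.0018) in R40A, -0.26 ± 0.05 (adjusted p = 0.00061) in G44A and -0.21 ± 0.05 (adjusted p = 0.0067) in N108A. HIS1 gave the lowest called value of the pathway, -0.33 ± 0.06 (adjusted p = 0.0009) in N108A. Within Q5A and within V81A, HIS5 had the smallest increase of the 4 genes, 0.16 ± 0.05 (adjusted p = 0.043) and 0.43 ± 0.05 (adjusted p = 1.2e-05).

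Several of these smaller calls were lost under other settings, of which 16 were run for each. HIS7 in Y98A was lost in 13 of the 16 and HIS5 in Q5A in 10. Without hht2-wt culture b, HIS4 was 0.16 in R40A and 0.08 in G44A. Without hht2-wt culture a, HIS4 in N108A was -0.21, HIS7 in N108A was -0.17 and HIS5 in Q5A was 0.13. HIS4 in K44A was 0.20 in the authors' value table (adjusted p = 0.083), and HIS7 in Y98A was 0.10 without hhf2-Y98A culture b. HIS3, the dehydratase of the same pathway and a common selectable marker in laboratory yeast, differed between the H4 strains: its log2 ratios to the reference were 1.37 and 1.24 in K44A, 0.02 and 0.40 in V81A, -2.23 and -1.97 in Y98A, against 1.49 and 1.41 in hhf2-wt. HIS3 was lower than in hhf2-wt, at -1.24 ± 0.14 (adjusted p = 7.6e-06) in V81A and -3.55 ± 0.14 (adjusted p = 5e-10) in Y98A, both of them mutants in which many of the 42 genes rose. Its part in the changes of the whole group in V81A and Y98A was not tested. LEU2 was above background on 4 arrays.

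In branched-chain amino acid synthesis, 8 of the 10 genes rose in V81A and 7 in Q5A, with none lower in either. Of those in Q5A, the call of ILV6 was lost in 11 of 16 other settings. In Y98A 2 rose and 3 fell, in G44A 1 rose and 3 fell, and in K44A 2 rose and 1 fell. Of all probes, 16.8% were called higher in V81A and 7.7% in Q5A. Shares higher and lower were 13.9% and 16.7% in Y98A, 23.9% and 22.4% in G44A and 15.9% and 13.6% in K44A. With 10 genes, the lower count in G44A and both counts in K44A are near these shares. The route runs from threonine deaminase (ILV1) through acetolactate synthase (ILV2, with its regulatory subunit ILV6), the reductoisomerase ILV5 and the dehydratase ILV3, branches to leucine through isopropylmalate synthase (LEU4 and LEU9) and the isomerase LEU1, and ends with the aminotransferases BAT1 in mitochondria and BAT2 in the cytosol.

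LEU4 had log2 ratios of 0.82 and 0.89 in Q5A, 0.31 and 0.48 in R40A, 0.32 and 0.72 in G44A, 0.25 and 0.43 in R53A, 0.56 and 0.58 in N108A, 0.34 and 0.47 in L109A, against 0.29 and 0.50 in hht2-wt. Across the H4 arrays, LEU4 had 0.92 and 0.96 in K44A, 1.81 and 2.08 in V81A, 0.47 and 0.77 in Y98A, against 0.44 and 0.42 in hhf2-wt. Q5A, N108A and each H4 mutant lay above their control on both arrays, with V81A highest of all, though N108A and Y98A were not called. LEU4 rose by 0.46 ± 0.08 (adjusted p = 0.0017) in Q5A, 0.51 ± 0.08 (adjusted p = 0.00043) in K44A and 1.52 ± 0.08 (adjusted p = 9.4e-09) in V81A, a linear fold of 2.86 in V81A and the largest increase of the group in any mutant.

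LEU4 and LYS9 lie on chromosome XIV, whose genes stood above the rest of the genome in V81A and K44A. The median log2 fold change of its 358 genes was 0.72 in V81A (0.72 in culture a and 0.71 in culture b) and 0.39 in K44A (0.41 and 0.37). Less that median, LEU4 was at 0.79 in V81A and 0.12 in K44A, and LYS9 at 0.73 in V81A and 0.59 in K44A. In G44A chromosome I had a median of 0.18 over 83 genes and chromosome VIII 0.19 over 252 genes, and its cultures differed (0.42 and -0.01 on I, 0.06 and 0.35 on VIII). Of the group only BAT1 and THR1, neither called in G44A, lie on VIII. Of the 38 genes off chromosomes I, VIII and XIV, 31 rose and 2 fell in V81A, 24 rose and 1 fell in Q5A, and 2 rose and 2 fell in K44A. All probes, these chromosomes included, gave 16.8% higher and 17.1% lower in V81A, 7.7% and 11.2% in Q5A, and 15.9% and 13.6% in K44A. Of the same 38 genes, 24 were higher and 3 lower in V81A over Y98A, against 21.6% and 18.4% of all probes. In K44A over Y98A, 2 of them were higher and 19 lower, against 23.1% and 20.4%.

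LEU9, the isozyme of LEU4, read 0.21 and 0.13 in Q5A, -0.30 and -0.33 in R40A, -0.63 and -0.63 in G44A, -0.26 and -0.20 in R53A, -0.25 and -0.15 in N108A, -0.18 and -0.23 in L109A, against -0.13 and -0.11 in hht2-wt. On the H4 arrays LEU9 read -0.31 and -0.31 in K44A, 0.29 and 0.12 in V81A, 0.02 and 0.05 in Y98A, against -0.02 and -0.31 in hhf2-wt. Both G44A arrays were at -0.63, the lowest of all 22, where LEU4 overlapped its control. LEU9 was lower, at -0.51 ± 0.08 (adjusted p = 0.0001) in G44A, and rose by 0.29 ± 0.08 (adjusted p = 0.016) in Q5A and 0.36 ± 0.08 (adjusted p = 0.0017) in V81A. Both synthase genes rose together in Q5A and V81A and were never called in opposite directions.

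BAT1 had log2 ratios to the reference of 0.94 and 0.88 in Q5A, 0.32 and 0.25 in R40A, 0.33 and 0.66 in G44A, 0.35 and 0.39 in R53A, 0.36 and 0.46 in N108A, 0.16 and 0.14 in L109A, against 0.27 and 0.36 in hht2-wt. For H4, it had 0.18 and 0.14 in K44A, 0.75 and 0.71 in V81A, -0.06 and -0.04 in Y98A, against 0.43 and 0.27 in hhf2-wt. Both Q5A arrays were above every other H3 array, V81A was above hhf2-wt, and Y98A had the lowest pair of all. BAT1 rose by 0.60 ± 0.08 (adjusted p = 0.00024) in Q5A and 0.38 ± 0.08 (adjusted p = 0.0024) in V81A and was lower, at -0.40 ± 0.08 (adjusted p = 0.0025) in Y98A.

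BAT2 gave another pattern, with -0.13 and -0.12 in Q5A, 0.40 and 0.24 in R40A, 0.86 and 0.93 in G44A, 0.18 and -0.05 in R53A, 0.47 and 0.15 in N108A, 0.06 and -0.12 in L109A, against 0.13 and -0.13 in hht2-wt. BAT2 in the H4 strains read 0.60 and 0.57 in K44A, 0.74 and 0.50 in V81A, 1.43 and 0.90 in Y98A, against -0.06 and -0.03 in hhf2-wt. The G44A arrays stood above all other H3 arrays, Q5A lay at the level of the lower hht2-wt array, and every H4 mutant array was above both hhf2-wt arrays. BAT2 rose by 0.89 ± 0.11 (adjusted p = 2e-05) in G44A, 0.31 ± 0.11 (adjusted p = 0.049) in N108A, 0.63 ± 0.11 (adjusted p = 0.00063) in K44A, 0.66 ± 0.11 (adjusted p = 0.00026) in V81A and 1.21 ± 0.11 (adjusted p = 1.7e-06) in Y98A, and was not called in Q5A (-0.12 ± 0.11, adjusted p = 0.51). In Y98A the aminotransferase genes were called in opposite directions, and in V81A both rose. Between mutants, BAT2 was lower in Q5A than in G44A, at -1.02 ± 0.11 (adjusted p = 3.7e-06), and lower in V81A than in Y98A, at -0.55 ± 0.11 (adjusted p = 0.0011).

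**Figure D4:**
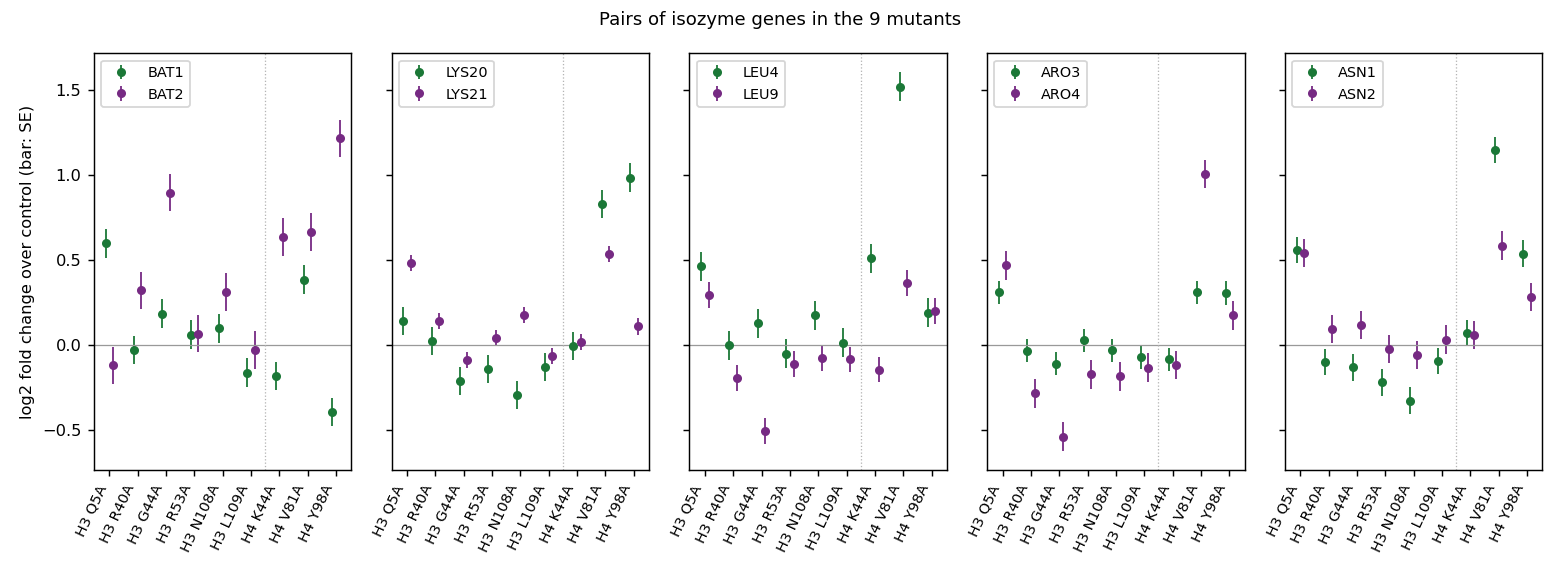
Log2 fold change over control (vertical axis, bars are standard errors) of both genes of 5 isozyme pairs in the 9 mutants (horizontal axis). BAT1 and BAT2 part in Y98A at -0.40 and 1.21, and LYS20 and LYS21 in N108A at -0.30 and 0.18.

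The lowest called branched-chain genes were ILV2 in R40A (-0.30 ± 0.09, adjusted p = 0.041), ILV3 in G44A (-0.55 ± 0.11, adjusted p = 0.00099) and ILV5 in K44A (-0.45 ± 0.09, adjusted p = 0.0019). In Y98A the lower genes were BAT1, LEU1 (-0.34 ± 0.07, adjusted p = 0.0026) and ILV5 (-0.33 ± 0.09, adjusted p = 0.012), while LEU4 at 0.19 ± 0.08 and ILV2 at 0.22 ± 0.09 were not called there. LEU3, which encodes the regulator of branched-chain genes, was lower, at -0.16 ± 0.05 (adjusted p = 0.044) in Y98A and higher in Q5A, R40A, G44A, N108A and K44A, from 0.20 in R40A to 0.42 in N108A. ILV1 had the smallest called increase in V81A, 0.33 ± 0.07 (adjusted p = 0.0025). Under other settings BAT2 in N108A was 0.23 without hht2-N108A culture a (adjusted p = 0.27), BAT1 in Y98A was -0.29 in the authors' value table (adjusted p = 0.1), ILV5 in Y98A was -0.18 with median centring (adjusted p = 0.23), ILV2 in R40A was -0.26 without hht2-wt culture b (adjusted p = 0.23), and LEU9 in Q5A was 0.26 without hht2-wt culture a (adjusted p = 0.12).

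**Figure D5:**
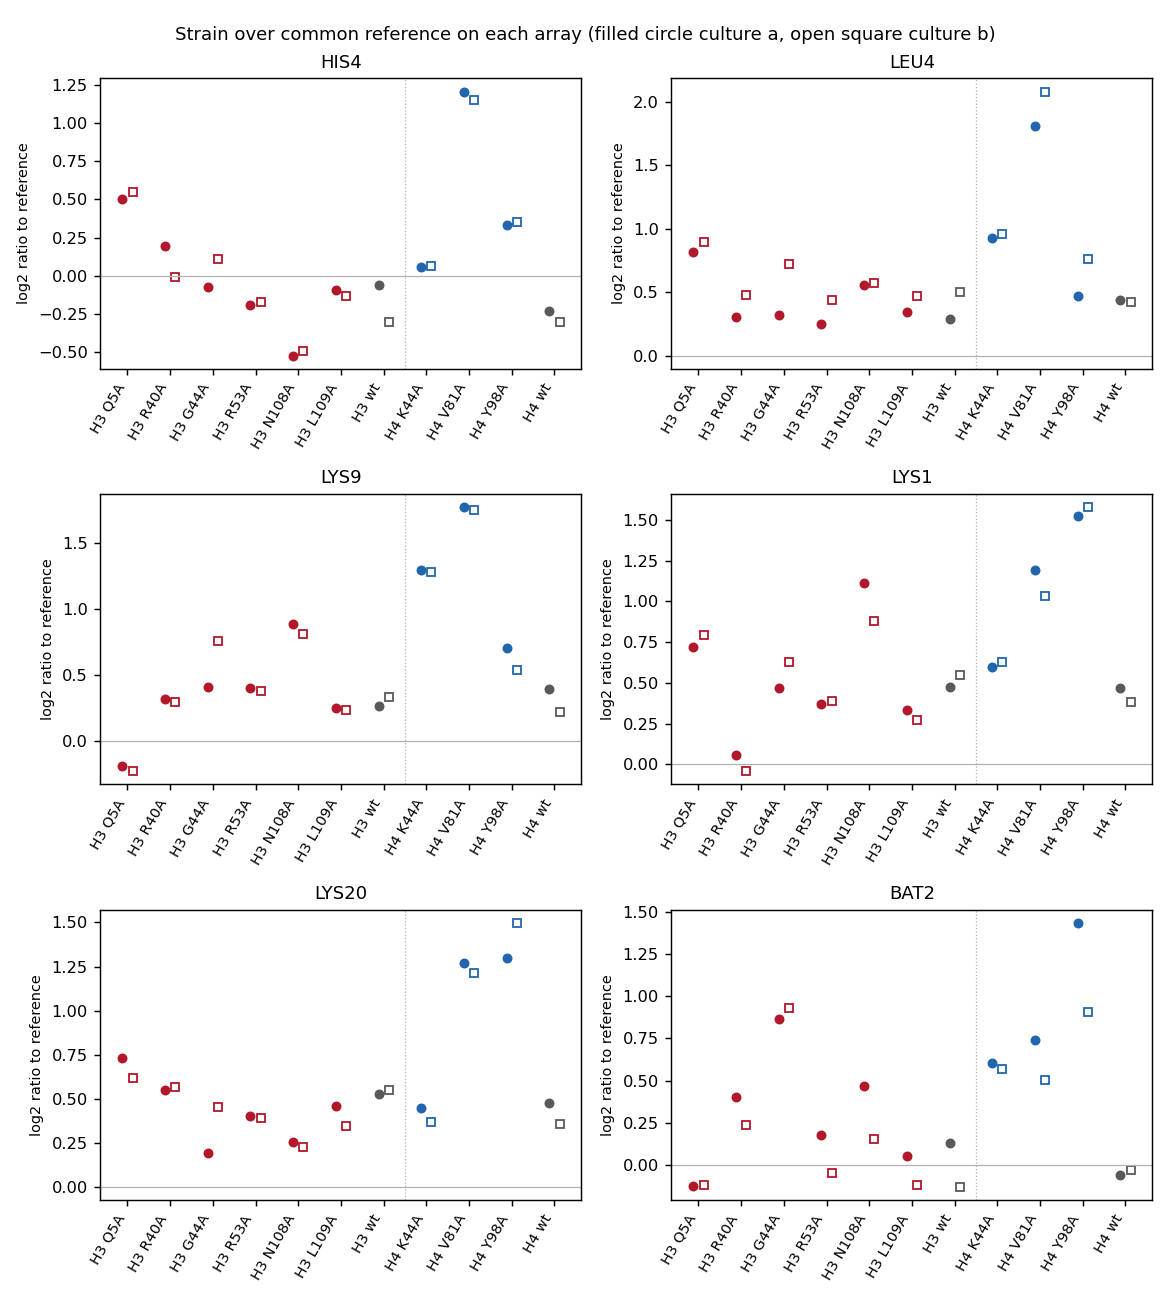
Log2 ratio of strain over common reference on each of the 22 arrays for HIS4, LEU4, LYS9, LYS1, LYS20 and BAT2 (1 panel a gene, each with its own vertical scale), by strain, with H3 mutants in red, H4 mutants in blue and controls in grey (filled circle culture a, open square culture b). LYS9 is below 0 in Q5A only, at -0.20 and -0.23. LYS20 is highest in Y98A, at 1.30 and 1.499, followed by V81A at 1.27 and 1.21.

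In lysine synthesis, all 7 genes rose in V81A, 4 rose in Y98A and 3 in N108A, while in Q5A 2 rose and 2 fell. Shares of all probes called higher were 16.8% in V81A, 13.9% in Y98A and 16.6% in N108A. For Q5A they were 7.7% higher and 11.2% lower. Homocitrate synthase (LYS20 and its isozyme LYS21) opens the fungal alpha-aminoadipate route, the homoaconitase LYS4 and the dehydrogenase LYS12 follow, the saccharopine enzymes LYS9 and LYS1 end it, and LYS14 encodes the pathway's own activator. LYS9 had log2 ratios of -0.20 and -0.23 in Q5A, 0.31 and 0.30 in R40A, 0.41 and 0.76 in G44A, 0.40 and 0.38 in R53A, 0.89 and 0.81 in N108A, 0.25 and 0.23 in L109A, against 0.27 and 0.33 in hht2-wt. Its ratios in the H4 strains were 1.29 and 1.28 in K44A, 1.77 and 1.75 in V81A, 0.71 and 0.54 in Y98A, against 0.39 and 0.22 in hhf2-wt. Q5A had the only arrays below 0, and K44A and V81A the arrays above 1.

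LYS9 was lower, at -0.51 ± 0.09 (adjusted p = 0.0012) in Q5A. It rose by 0.28 ± 0.09 (adjusted p = 0.018) in G44A, 0.55 ± 0.09 (adjusted p = 0.00053) in N108A, 0.98 ± 0.09 (adjusted p = 2.9e-06) in K44A, 1.46 ± 0.09 (adjusted p = 2.2e-08) in V81A and 0.32 ± 0.09 (adjusted p = 0.015) in Y98A. In Q5A over N108A the difference was -1.06 ± 0.09 (adjusted p = 6.2e-07), the largest decrease in that comparison among the 42 genes. The other lysine gene called lower in Q5A was LYS4 (-0.20 ± 0.05, adjusted p = 0.019).

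LYS1, which catalyses the last step, read 0.72 and 0.80 in Q5A, 0.06 and -0.04 in R40A, 0.47 and 0.63 in G44A, 0.37 and 0.39 in R53A, 1.11 and 0.88 in N108A, 0.33 and 0.27 in L109A, against 0.48 and 0.55 in hht2-wt. Across the H4 arrays, LYS1 read 0.59 and 0.63 in K44A, 1.19 and 1.03 in V81A, 1.52 and 1.58 in Y98A, against 0.47 and 0.38 in hhf2-wt. R40A was below and N108A and Q5A above both hht2-wt arrays, and all arrays of Y98A and V81A were above 1. R53A and L109A, which were not called, were also below both hht2-wt arrays. LYS1 was lower, at -0.50 ± 0.08 (adjusted p = 0.00056) in R40A and rose by 0.25 ± 0.08 (adjusted p = 0.04) in Q5A, 0.48 ± 0.08 (adjusted p = 0.00046) in N108A, 0.69 ± 0.08 (adjusted p = 6.7e-06) in V81A and 1.13 ± 0.08 (adjusted p = 9.9e-08) in Y98A. Y98A exceeded V81A here, with V81A over Y98A at -0.44 ± 0.08 (adjusted p = 0.00038).

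LYS20 had 0.73 and 0.62 in Q5A, 0.55 and 0.56 in R40A, 0.19 and 0.45 in G44A, 0.40 and 0.39 in R53A, 0.25 and 0.22 in N108A, 0.46 and 0.35 in L109A, against 0.53 and 0.55 in hht2-wt. For H4, it had 0.45 and 0.37 in K44A, 1.27 and 1.21 in V81A, 1.30 and 1.499 in Y98A, against 0.48 and 0.36 in hhf2-wt. Both V81A and Y98A were far above hhf2-wt, and K44A overlapped it. LYS20 rose by 0.83 ± 0.08 (adjusted p = 2.1e-06) in V81A and 0.98 ± 0.08 (adjusted p = 8.2e-07) in Y98A, and was lower, at -0.21 ± 0.08 (adjusted p = 0.049) in G44A and -0.30 ± 0.08 (adjusted p = 0.017) in N108A.

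LYS21 read 0.53 and 0.55 in Q5A, 0.20 and 0.20 in R40A, -0.01 and -0.05 in G44A, 0.08 and 0.12 in R53A, 0.19 and 0.28 in N108A, -0.04 and 0.02 in L109A, against 0.04 and 0.07 in hht2-wt. The H4 strains had LYS21 at 0.01 and 0.14 in K44A, 0.52 and 0.66 in V81A, 0.17 and 0.16 in Y98A, against 0.04 and 0.08 in hhf2-wt. In Q5A both arrays were above every other H3 array, where LYS20 was not called (0.14 ± 0.08, adjusted p = 0.29). LYS21 rose by 0.48 ± 0.05 (adjusted p = 1.8e-05) in Q5A, 0.18 ± 0.05 (adjusted p = 0.014) in N108A and 0.53 ± 0.05 (adjusted p = 6.1e-07) in V81A, and Y98A gave 0.11 ± 0.05 (adjusted p = 0.11). The homocitrate synthase genes were called in opposite directions in N108A and both higher in V81A.

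LYS4 was the lowest called lysine gene in G44A (-0.24 ± 0.05, adjusted p = 0.0026) and had the smallest increase of the pathway in V81A (0.25 ± 0.05, adjusted p = 0.0019). The call of LYS20 in G44A was lost in 11 of 16 other settings, and that of LYS1 in Q5A in 10 of 16. Under other settings LYS4 in Q5A was -0.16 with median centring (adjusted p = 0.17), LYS1 in Q5A was 0.20 without hht2-wt culture a (adjusted p = 0.25), LYS9 in G44A was 0.06 with scale normalisation (adjusted p = 0.62), LYS9 in Y98A was 0.23 without hhf2-Y98A culture a (adjusted p = 0.15), LYS20 in G44A was -0.07 without hht2-G44A culture a (adjusted p = 0.55), LYS20 in N108A was -0.28 without hht2-N108A culture b (adjusted p = 0.082), LYS21 in N108A was 0.08 with median centring (adjusted p = 0.36), LYS4 in G44A was -0.24 fitting the 2 strains alone (adjusted p = 0.051), and LYS4 in V81A was 0.16 with scale normalisation (adjusted p = 0.061).

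In aromatic amino acid synthesis, 8 of the 10 genes rose and 1 fell in V81A, 7 rose in Q5A and 3 rose in Y98A. In G44A 1 rose and 3 fell, in R40A and in N108A 2 fell, and in K44A none was called. Called higher over all probes were 16.8% in V81A, 7.7% in Q5A, 13.9% in Y98A and 23.9% in G44A. Called lower were 17.1% in V81A, 22.4% in G44A, 4.95% in R40A and 12% in N108A. In K44A 29.5% of all probes changed. DAHP synthase (ARO3, inhibited by phenylalanine, and ARO4, inhibited by tyrosine) opens the shikimate route, ARO1 carries out its middle steps and ARO2 makes chorismate. TRP2, TRP3, TRP4 and TRP5 lead from chorismate to tryptophan, and the chorismate mutase ARO7 and the aminotransferase ARO8 to phenylalanine and tyrosine.

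ARO4 had log2 ratios to the reference of 0.42 and 0.40 in Q5A, -0.51 and -0.18 in R40A, -0.70 and -0.50 in G44A, -0.34 and -0.13 in R53A, -0.32 and -0.17 in N108A, -0.28 and -0.10 in L109A, against -0.14 and 0.02 in hht2-wt. ARO4 in the H4 strains had -0.26 and -0.36 in K44A, 0.77 and 0.86 in V81A, -0.16 and 0.13 in Y98A, against -0.22 and -0.16 in hhf2-wt. Q5A and V81A were above 0 on both arrays, G44A had the lowest pair, and culture b of R40A was close to culture a of hht2-wt. ARO4 rose by 0.47 ± 0.08 (adjusted p = 0.0015) in Q5A and 1.004 ± 0.08 (adjusted p = 3.2e-07) in V81A, and was lower, at -0.29 ± 0.08 (adjusted p = 0.034) in R40A and -0.54 ± 0.08 (adjusted p = 0.00015) in G44A. Q5A over G44A gave 1.01 ± 0.08 (adjusted p = 3.5e-07).

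ARO3 read 0.41 and 0.63 in Q5A, 0.13 and 0.22 in R40A, -0.01 and 0.21 in G44A, 0.21 and 0.26 in R53A, 0.09 and 0.26 in N108A, 0.13 and 0.15 in L109A, against 0.24 and 0.19 in hht2-wt. Its H4 ratios were 0.09 and 0.35 in K44A, 0.52 and 0.71 in V81A, 0.54 and 0.68 in Y98A, against 0.22 and 0.39 in hhf2-wt. Here Q5A, V81A and Y98A were above their control on both arrays, and G44A overlapped it. ARO3 rose by 0.31 ± 0.07 (adjusted p = 0.0058) in Q5A, 0.31 ± 0.07 (adjusted p = 0.0025) in V81A and 0.30 ± 0.07 (adjusted p = 0.0037) in Y98A. It was not called in G44A (-0.11 ± 0.07, adjusted p = 0.19), where ARO4 was lower, and the DAHP synthase genes were called together, both higher, in Q5A and V81A.

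TRP3, whose product takes part in the first and a later step of the tryptophan branch, had 0.62 and 0.44 in Q5A, -0.15 and -0.09 in R40A, 0.03 and -0.05 in G44A, -0.18 and -0.12 in R53A, -0.17 and -0.17 in N108A, -0.14 and -0.07 in L109A, against -0.06 and 0.21 in hht2-wt. Across the H4 arrays, TRP3 had 0.03 and -0.06 in K44A, 0.63 and 0.55 in V81A, 0.24 and 0.24 in Y98A, against -0.01 and -0.20 in hhf2-wt. TRP3 was above its control on both arrays in Q5A, V81A and Y98A, and below it in N108A. R40A, R53A and L109A, not called for TRP3, were also below both hht2-wt arrays. The log2 fold change was 0.46 ± 0.09 (adjusted p = 0.0019) in Q5A, -0.24 ± 0.09 (adjusted p = 0.044) in N108A, 0.69 ± 0.09 (adjusted p = 1.6e-05) in V81A and 0.34 ± 0.09 (adjusted p = 0.0071) in Y98A. All 4 TRP genes rose in Q5A and in V81A, from 0.33 for TRP2 to 0.55 for TRP5 in Q5A and from 0.40 for TRP4 to 0.69 for TRP3 in V81A.

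TRP5 was the highest of the pathway in Q5A (0.55 ± 0.04, adjusted p = 2e-06) and G44A (0.14 ± 0.04, adjusted p = 0.018) and had the smallest called increase in Y98A (0.13 ± 0.04, adjusted p = 0.03). ARO7, at the branch away from tryptophan, fell in V81A (-0.38 ± 0.06, adjusted p = 0.0001). TRP2 was lower in R40A (-0.21 ± 0.05, adjusted p = 0.015) and ARO2 in N108A (-0.22 ± 0.06, adjusted p = 0.012). The call of TRP5 in Y98A was lost in 12 of 16 other settings. Under other settings ARO4 in R40A was -0.18 without hht2-R40A culture a (adjusted p = 0.33), ARO3 in Q5A was 0.31 fitting the 2 strains alone (adjusted p = 0.09), ARO3 in Y98A was 0.30 without the dye term (adjusted p = 0.058), TRP3 in Q5A was 0.46 fitting the 2 strains alone (adjusted p = 0.061), TRP3 in N108A was -0.09 without hht2-wt culture b (adjusted p = 0.48), TRP3 in Y98A was 0.25 without hhf2-wt culture b (adjusted p = 0.091), TRP2 in R40A was -0.15 without hht2-wt culture b (adjusted p = 0.18), TRP4 in V81A was 0.29 without hhf2-wt culture b (adjusted p = 0.16), TRP5 in G44A was 0.03 with median centring (adjusted p = 0.78), TRP5 in Y98A was 0.01 in the authors' value table (adjusted p = 0.86), and ARO2 in N108A was -0.17 without hht2-wt culture a (adjusted p = 0.13).

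ARO9 and ARO10, which Aro80 induces for the breakdown of aromatic amino acids, were at 0.15 ± 0.07 (adjusted p = 0.13) and 0.29 ± 0.08 (adjusted p = 0.022) in Q5A. In G44A ARO9 rose by 0.96 ± 0.07 (adjusted p = 1.1e-07) and ARO10 by 1.17 ± 0.08 (adjusted p = 9.8e-08), in N108A ARO9 rose by 0.77 ± 0.07 (adjusted p = 3.4e-06) and ARO10 by 1.09 ± 0.08 (adjusted p = 7.6e-07), and both also rose in R40A, K44A and Y98A. ARO80 rose in G44A (0.61 ± 0.05, adjusted p = 7.4e-07), N108A (0.58 ± 0.05, adjusted p = 4.7e-06), K44A (0.68 ± 0.05, adjusted p = 8e-07), R40A (0.48 ± 0.05, adjusted p = 3.6e-05) and R53A (0.37 ± 0.05, adjusted p = 0.0025). In Q5A over G44A, ARO9 differed by -0.81 ± 0.07 (adjusted p = 3.2e-07) and ARO80 by -0.72 ± 0.05 (adjusted p = 8.4e-08).

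On the aspartate family route to threonine, 3 of the 5 genes rose in Q5A and in V81A and 2 in Y98A, 2 fell in N108A, and none was called in R40A, G44A or K44A. Among all probes, 7.7%, 16.8% and 13.9% were higher in Q5A, V81A and Y98A, and 12% lower in N108A. Those changed in R40A, G44A and K44A were 14.7%, 46.3% and 29.5%. HOM3 encodes aspartate kinase, HOM2 aspartate semialdehyde dehydrogenase, HOM6 homoserine dehydrogenase, THR1 homoserine kinase and THR4 threonine synthase. HOM3 had log2 ratios of 0.73 and 0.76 in Q5A, -0.02 and -0.14 in R40A, 0.06 and 0.16 in G44A, -0.09 and -0.09 in R53A, -0.16 and -0.12 in N108A, 0.02 and -0.11 in L109A, against 0.10 and 0.10 in hht2-wt. For H4, HOM3 had 0.26 and 0.01 in K44A, 1.20 and 1.09 in V81A, 0.41 and 0.36 in Y98A, against 0.10 and 0.06 in hhf2-wt. Q5A and V81A stood apart from all other arrays, at 0.73 or above. N108A lay below hht2-wt on both arrays, and so did R40A, R53A and L109A, which were not called.

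HOM3 rose by 0.65 ± 0.07 (adjusted p = 2.6e-05) in Q5A, 1.06 ± 0.07 (adjusted p = 3e-08) in V81A and 0.30 ± 0.07 (adjusted p = 0.0042) in Y98A and was lower, at -0.24 ± 0.07 (adjusted p = 0.016) in N108A. HOM2 read 0.46 and 0.45 in Q5A, -0.20 and -0.05 in R40A, -0.29 and -0.0041 in G44A, -0.21 and -0.20 in R53A, -0.29 and -0.31 in N108A, -0.14 and -0.10 in L109A, against 0.02 and -0.03 in hht2-wt. HOM2 in the H4 strains read -0.08 and -0.15 in K44A, 0.79 and 0.68 in V81A, 0.22 and 0.29 in Y98A, against -0.16 and -0.08 in hhf2-wt. For HOM2 too, Q5A, V81A and Y98A were above and N108A below their control on both arrays. R40A, R53A and L109A, which were not called, were also below both hht2-wt arrays.

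HOM2 rose by 0.45 ± 0.08 (adjusted p = 0.00089) in Q5A, 0.85 ± 0.08 (adjusted p = 6e-07) in V81A and 0.37 ± 0.08 (adjusted p = 0.002) in Y98A and was lower, at -0.30 ± 0.08 (adjusted p = 0.0099) in N108A. THR4 rose less, by 0.21 ± 0.06 (adjusted p = 0.025) in Q5A and 0.30 ± 0.06 (adjusted p = 0.0014) in V81A. HOM6 and THR1 were called in no mutant, with log2 fold changes of 0.01 ± 0.06 and 0.28 ± 0.11 in Q5A and -0.06 ± 0.06 and 0.15 ± 0.11 in V81A. In Q5A over R40A, however, THR1 was higher by 0.53 ± 0.11 (adjusted p = 0.0015), and in K44A over Y98A HOM6 was higher by 0.27 ± 0.06 (adjusted p = 0.003). Under other settings THR4 in Q5A was 0.21 without the dye term (adjusted p = 0.34), THR4 in V81A was 0.30 without the dye term (adjusted p = 0.096), HOM3 in N108A was -0.19 without hht2-N108A culture a (adjusted p = 0.13), and HOM2 in N108A was -0.25 without hht2-wt culture a (adjusted p = 0.099).

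Both asparagine synthetase genes, ASN1 and ASN2, rose in Q5A, V81A and Y98A, and ASN1 was the only one lower in N108A. The shares of all probes were 7.7%, 16.8% and 13.9% higher in Q5A, V81A and Y98A, and 12% lower in N108A. ASN1 had log2 ratios to the reference of 0.93 and 0.95 in Q5A, 0.21 and 0.36 in R40A, 0.05 and 0.45 in G44A, 0.09 and 0.24 in R53A, 0.02 and 0.09 in N108A, 0.30 and 0.28 in L109A, against 0.35 and 0.42 in hht2-wt. Across the H4 arrays, it had 0.37 and 0.38 in K44A, 1.39 and 1.51 in V81A, 0.85 and 0.84 in Y98A, against 0.27 and 0.34 in hhf2-wt. The Q5A, V81A and Y98A arrays were all at 0.84 or above, and no other array was above 0.45.

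ASN1 rose by 0.56 ± 0.08 (adjusted p = 0.00024) in Q5A, 1.15 ± 0.08 (adjusted p = 5e-08) in V81A and 0.54 ± 0.08 (adjusted p = 0.00014) in Y98A and was lower, at -0.33 ± 0.08 (adjusted p = 0.0065) in N108A. ASN2 read 0.54 and 0.48 in Q5A, 0.16 and -0.02 in R40A, 0.03 and 0.14 in G44A, -0.08 and -0.02 in R53A, -0.17 and -0.01 in N108A, 0.06 and -0.05 in L109A, against 0.06 and -0.12 in hht2-wt. The H4 strains read 0.20 and 0.01 in K44A, 0.73 and 0.53 in V81A, 0.33 and 0.32 in Y98A, against 0.10 and -0.01 in hhf2-wt. ASN2 was above its control on both arrays in the same 3 mutants and overlapped it in N108A.

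ASN2 rose by 0.54 ± 0.08 (adjusted p = 0.00051) in Q5A, 0.58 ± 0.08 (adjusted p = 7.2e-05) in V81A and 0.28 ± 0.08 (adjusted p = 0.021) in Y98A, the last not throughout: ASN2 in Y98A was 0.25 without hhf2-Y98A culture b (adjusted p = 0.11). In Q5A over N108A, ASN1 differed by 0.89 ± 0.08 (adjusted p = 8.5e-07) and ASN2 by 0.60 ± 0.08 (adjusted p = 5.9e-05).

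In proline synthesis, PRO3, the pyrroline-5-carboxylate reductase of its last step, fell in 6 mutants and rose in none, while PRO1 (glutamate kinase) and PRO2 (glutamate phosphate reductase), which open the route, fell in 2 mutants and in 1 mutant. PRO3 had log2 ratios of -0.05 and -0.06 in Q5A, -0.29 and -0.24 in R40A, -0.38 and -0.31 in G44A, -0.08 and -0.02 in R53A, -0.18 and -0.21 in N108A, -0.13 and -0.04 in L109A, against -0.03 and 0.11 in hht2-wt. For H4, PRO3 had -0.31 and -0.39 in K44A, -0.31 and -0.12 in V81A, -0.33 and -0.33 in Y98A, against 0.01 and 0.04 in hhf2-wt. R40A, G44A and N108A were below both hht2-wt arrays, as was each H4 mutant below hhf2-wt. Q5A and L109A, neither called, lay just under the lower hht2-wt array or further below.

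PRO3 was lower, at -0.30 ± 0.06 (adjusted p = 0.0026) in R40A, -0.39 ± 0.06 (adjusted p = 0.0001) in G44A, -0.23 ± 0.06 (adjusted p = 0.008) in N108A, -0.37 ± 0.06 (adjusted p = 0.00022) in K44A, -0.24 ± 0.06 (adjusted p = 0.0044) in V81A and -0.36 ± 0.06 (adjusted p = 0.00031) in Y98A. It was thus one of the 2 genes called lower in V81A, beside ARO7. In Q5A it gave -0.09 ± 0.06 (adjusted p = 0.3).

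PRO2 read 0.18 and 0.25 in Q5A, -0.16 and 0.0039 in R40A, -0.48 and -0.08 in G44A, -0.16 and 0.06 in R53A, -0.13 and -0.13 in N108A, -0.14 and -0.004 in L109A, against -0.05 and -0.08 in hht2-wt. Its ratios in the H4 strains were -0.11 and -0.10 in K44A, 0.39 and 0.37 in V81A, 0.06 and 0.15 in Y98A, against -0.03 and -0.01 in hhf2-wt. V81A and Q5A were above their control on both arrays, and of the G44A cultures only a was clearly below hht2-wt. Among mutants not called, Y98A was above, and N108A and K44A below, their control on both arrays. PRO2 rose by 0.28 ± 0.08 (adjusted p = 0.032) in Q5A and 0.40 ± 0.08 (adjusted p = 0.0017) in V81A and was lower, at -0.22 ± 0.08 (adjusted p = 0.046) in G44A. PRO1 was lower, at -0.31 ± 0.05 (adjusted p = 0.00021) in G44A and -0.17 ± 0.05 (adjusted p = 0.02) in N108A. The call of PRO2 in G44A was lost in 9 of 16 other settings. Under other settings PRO2 in Q5A was 0.21 without hht2-wt culture b (adjusted p = 0.21), PRO2 in G44A was -0.05 without hht2-G44A culture a (adjusted p = 0.61), PRO1 in N108A was -0.17 without the dye term (adjusted p = 0.32), PRO3 in N108A was -0.18 without hht2-wt culture b (adjusted p = 0.08), and PRO3 in V81A was -0.17 with median centring (adjusted p = 0.14).

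HIS7 and ARO4 are adjacent on chromosome II, and both rose in Q5A and V81A and both fell in R40A and G44A.

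Other genes of the response were read from lists of regulators, further enzymes of the same pathways, aminoacyl-tRNA synthetases and amino acid permeases. The shares of all probes called higher and lower were 7.7% and 11.2% in Q5A, 23.9% and 22.4% in G44A, 16.6% and 12% in N108A, 15.9% and 13.6% in K44A, 16.8% and 17.1% in V81A and 13.9% and 16.7% in Y98A. Of the 23 regulators, 4 rose and 1 fell in Q5A, 4 rose and 5 fell in V81A and 3 rose and 4 fell in Y98A. The shares of all probes changed there were 18.9%, 33.9% and 30.6%, so the numbers changed in either direction are near the background. By direction, the 4 higher in Q5A are a larger share than the 7.7% of all probes. In G44A 3 regulators rose and 10 fell, with 46.3% of all probes changed. PCL5, a cyclin for the Pho85 kinase that marks Gcn4 for degradation and itself a Gcn4 target, rose by 0.60 ± 0.19 (adjusted p = 0.043) in Q5A and 0.59 ± 0.19 (adjusted p = 0.033) in Y98A, and gave 0.39 ± 0.19 (adjusted p = 0.14) in V81A. GCN2, which encodes the kinase that senses uncharged tRNA, was at 0.06 ± 0.06 in Q5A and -0.09 ± 0.06 in V81A, neither called. MKS1, a regulator on chromosome XIV, rose by 0.63 ± 0.07 (adjusted p = 4.4e-06) in V81A, below that chromosome's median of 0.72 there.

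Of the 16 further enzymes, 4 rose and 2 fell in Q5A, 5 rose and 2 fell in V81A, and 3 rose and 6 fell in G44A, where 18.9%, 33.9% and 46.3% of all probes changed. CHA1, a catabolic serine and threonine deaminase, was lower, at -1.33 ± 0.12 (adjusted p = 6.8e-06) in Q5A and -1.10 ± 0.12 (adjusted p = 6.6e-06) in G44A and higher by 1.06 ± 0.12 (adjusted p = 2.7e-05) in N108A. GDH1, the NADPH-dependent glutamate dehydrogenase, rose by 0.78 ± 0.06 (adjusted p = 1.5e-06) in Q5A and 0.54 ± 0.06 (adjusted p = 4.3e-06) in V81A. HIS6, a histidine enzyme not among the 42, fell in 6 mutants, Q5A included (-0.33 ± 0.06, adjusted p = 0.0022), where all 4 histidine genes of the group rose. PHA2, for phenylalanine synthesis, rose by 0.66 ± 0.05 (adjusted p = 1.1e-07) in V81A. It lies on chromosome XIV and was below that chromosome's median of 0.72 in V81A.

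Of the 12 tRNA synthetase genes, 3 rose in Q5A, 3 in V81A and 2 in Y98A, with none lower in these mutants. For V81A and Y98A these counts are a smaller share than the 33.9% and 30.6% of all probes changed, and the Y98A count is near the 13.9% called higher. The count of 3 in Q5A is a larger share than the 7.7% of all probes called higher. With 12 genes, the count of 3 in V81A is near the 16.8% called higher there. VAS1, the valyl-tRNA synthetase, rose by 0.22 ± 0.06 (adjusted p = 0.023) in Q5A, 0.37 ± 0.06 (adjusted p = 0.0003) in V81A and 0.23 ± 0.06 (adjusted p = 0.012) in Y98A. Of the 12 permease genes, 5 rose in Q5A and 4 rose and 1 fell in V81A, while 3 fell in N108A, and 1 rose and 3 fell in K44A, where 18.9%, 33.9%, 28.6% and 29.5% of all probes changed. BAP3, a branched-chain amino acid permease, rose by 0.49 ± 0.08 (adjusted p = 0.00058) in Q5A, 0.58 ± 0.08 (adjusted p = 3.8e-05) in V81A and 0.50 ± 0.08 (adjusted p = 0.00022) in Y98A and fell in N108A (-0.45 ± 0.08, adjusted p = 0.00077). LYP1, the lysine permease, rose by 0.90 ± 0.06 (adjusted p = 5.9e-08) in V81A and 0.50 ± 0.06 (adjusted p = 4.4e-05) in K44A. It lies on chromosome XIV, whose median was 0.72 in V81A and 0.39 in K44A. GAP1, the general amino acid permease, was lower, at -0.43 ± 0.10 (adjusted p = 0.0042) in V81A.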

How the data were processed

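Two-colour arrays were analysed for 2 cultures of each of 11 yeast strains. Per the file headers, the deposited scanner files hold spot and local background intensity in both channels, without background subtraction. The authors' log2 ratios, in the deposited value table, were made per their protocol text with print-tip loess without background subtraction and a dye-bias correction, and their tests used limma 2.12.0. That table served as an alternative, with the sign of 3 arrays (culture a of Q5A, L109A and hhf2-wt) turned to match the scanner ratios, so it does not bear on the direction on those arrays.

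From the scanner files, mean spot intensity was background-corrected with normexp (offset 50) and log2 ratios were normalised by global loess within each array, with control spots at weight 0. By the dye labels, all ratios were put as strain over reference, and the 2 spots of a probe were averaged. All 22 arrays were fitted with limma 3.58.1 in R 4.3.3, with 11 strain means, a dye term and empirical Bayes moderation (residual df 10, prior df 4.16), and Benjamini-Hochberg adjustment ran over 6388 probes at a threshold of 0.05. The fit was tested on simulated data. The dye term is the same as a block on the culture letter: culture differences of 52 of 55 pairs of strains correlated by over 0.1 (median 0.387, lowest -0.125), and dye and culture cannot be told apart. The labels give separate cultures, and nothing on strain construction is used here. Gene names, chromosomes and gene order come from the R64 gene table, and no coordinates are given because the arrays' build is not given in the sources used here.

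In each mutant and pathway the called genes with the highest and lowest log2 fold change were named, and array values were given for GCN4, the 2 genes of each pathway called in the most mutants and the isozyme pairs. HIS3, TRP1, LEU2 and the genes of the other lists were named after their values were seen. The genes and lists were chosen with earlier results of these data known. No promoter or protein sequence was used here.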

Additional observations from a re-analysis of the deposited data

How the results depend on the processing

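Counts of called genes were recomputed with other background corrections, normalisations, filters, sources of values and samples. In V81A, Y98A, L109A, the comparison of the 2 controls and the direct comparisons other than K44A with Y98A, every count stayed within 1.5 times its value. With the replicate block (dye term) left out, 5 genes were called in R40A, 11 in G44A and 10 in N108A, and 21 in Q5A, 6 in K44A, 34 in V81A and 17 in Y98A. Median centring in place of loess gave 4 in R40A, and the median of spot pixels, an alternative chosen after seeing the data, gave 5. Fitting only the arrays of the 2 strains gave 10 in G44A and 6 in R53A, and scale normalisation gave 1 in R53A. Print-tip loess and the authors' value table each gave 10 in K44A. Leaving out 1 culture at a time gave 18 to 22 in Q5A, 3 to 7 in R40A, 6 to 10 in N108A and 14 to 21 in K44A over Y98A. Of the 133 calls, 76 held under all alternatives run and 57 were lost under at least 1, and no call changed direction. By mutant, the calls that held numbered 16 of 28 in Q5A, 3 of 8 in R40A, 8 of 18 in G44A, 4 of 16 in N108A, 5 of 6 in K44A, 31 of 36 in V81A and 9 of 21 in Y98A. The cause of these shifts was not tested, except that fits with fewer arrays have fewer degrees of freedom. With 2 cultures a strain, p-values assume that all strains vary alike. The regulators, further enzymes, tRNA synthetases and permeases were not rerun under the alternatives.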

Other observations

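Further calls within the group were those of ILV3, ILV6, ARO1, LYS14 and ARO8. ILV3, the dihydroxyacid dehydratase, was 0.50 ± 0.11 (adjusted p = 0.0055) in Q5A and -0.55 ± 0.11 (adjusted p = 0.00099) in G44A, and Q5A over G44A gave 1.06 ± 0.11 (adjusted p = 2.3e-06), the highest value of the group in that comparison. Under another setting ILV3 in Q5A was 0.42 without hht2-wt culture a (adjusted p = 0.073). ILV6, the regulatory subunit of acetolactate synthase, rose by 0.77 ± 0.12 (adjusted p = 0.0002) in V81A, and ARO1 by 0.85 ± 0.07 (adjusted p = 1.4e-07) in V81A and 0.54 ± 0.07 (adjusted p = 7.2e-05) in Q5A. LYS14, the activator of the lysine genes, was called in V81A alone among the 9 mutants (0.29 ± 0.09, adjusted p = 0.03), and LYS14 in V81A was 0.22 without hhf2-V81A culture a (adjusted p = 0.22). ARO8 was called in V81A (0.54 ± 0.11, adjusted p = 0.0014) and in no other mutant.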
